A study of Mus musculus with 6 samples.

Results

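The endothelial junction and identity genes are 10 genes that mark the cells lining blood vessels: Pecam1, Cdh5, Cldn5, Esam, Emcn, Plvap, Vwf, Eng, Robo4 and Sox18. They were taken by symbol from the probe sets that name a single gene on the Affymetrix array. All 10 of 10 were found, on 12 probe sets, among 18194 genes with such a probe set, and all 10 passed the filter on low values that left 11623 genes. The samples were 6 tumours of KPC1199, a line of mouse pancreatic ductal adenocarcinoma cells, each grown under the skin of the right back of a mouse and run on its own array. In the 3 lactation mice the cells were injected when the animal was pregnant or nursing, and the labels do not separate these. The 3 control mice received the same cells. All were killed 20 days after injection at the same age, and neither strain nor age in weeks is given in the labels. The labels call the tumours biological replicates. Tumours of 1 implanted line hold vessels that come from the host, so vessel genes report on host cells in a mixed tissue. Host and line are both mouse, and the array does not separate their transcripts.

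Endothelial cells hold the vessel wall shut through adherens junctions, in which VE-cadherin (Cdh5) binds its like on the next cell, and tight junctions, in which claudin-5 (Cldn5) seals the gap. Pecam1 and Esam are immunoglobulin-type adhesion proteins at the same contacts. Other products of the set give vessels their identity: a transcription factor (Sox18), receptors of TGF-beta and guidance signals (Eng, Robo4), a sialomucin of the luminal surface (Emcn), the diaphragm protein of fenestrae and caveolae (Plvap) and the clotting glycoprotein that endothelium and platelets store (Vwf). In tumours, vessels are often leaky, and these genes are in common use to gauge vessel content.

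The RefSeq promoter table (GRCm38.p6) held 1 entry for 4 of the 10 genes. The 180 bases before the first annotated base of each of these 4 are shown, and their levels played no part in the choice. Emcn, Eng and Robo4 were highest in control replicate 3, as were 9 of the 10 members, while Cldn5 was not. All lie on the plus strand and read 5′ to 3′. Capitals mark GGAA on either strand (TTCC as read here), the core that ETS factors bind, a family prominent in endothelium.
Emcn, chr3:137340882-137341061: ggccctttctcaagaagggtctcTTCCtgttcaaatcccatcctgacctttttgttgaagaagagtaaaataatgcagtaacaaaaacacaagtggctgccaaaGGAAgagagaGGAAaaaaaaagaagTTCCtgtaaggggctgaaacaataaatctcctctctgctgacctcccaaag
Eng, chr2:32646415-32646594: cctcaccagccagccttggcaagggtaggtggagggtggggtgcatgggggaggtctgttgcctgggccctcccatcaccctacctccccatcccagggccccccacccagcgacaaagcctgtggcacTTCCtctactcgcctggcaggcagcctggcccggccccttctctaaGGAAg
Robo4, chr9:37401722-37401901: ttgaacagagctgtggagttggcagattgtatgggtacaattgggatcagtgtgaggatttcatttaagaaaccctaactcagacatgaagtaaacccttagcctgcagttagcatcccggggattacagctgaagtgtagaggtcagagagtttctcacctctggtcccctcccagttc
Cldn5, chr16:18776667-18776846: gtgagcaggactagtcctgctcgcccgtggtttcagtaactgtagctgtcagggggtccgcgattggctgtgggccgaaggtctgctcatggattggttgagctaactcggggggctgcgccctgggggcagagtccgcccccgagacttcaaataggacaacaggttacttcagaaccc

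The Emcn window held 4 GGAA cores, of which 2 lay in the longer form CAGGAA, which contains the core. The Eng window held 2 cores, and those of Robo4 and Cldn5 held 0. Of all 32851 promoter windows of the same length in the table, 86.3% held a GGAA core and 19.6% held CAGGAA on either strand. CCGGAA, a second form that contains the core, was in none of the 4 windows and in 10.1% of all. ACAAT, the core of SOX factor sites, was found 1 time before Emcn and 2 times before Robo4, and in 20.6% of all windows. GGGCGG, the GC box, was found 1 time before Cldn5, on the minus strand, and in 30.2% of all. These matches are descriptions of letters in short windows, and none of the 5 motifs was in all 3 of the Emcn, Eng and Robo4 windows.

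Lactation was compared with control to ask whether vessel genes of the tumour differ with the state of the host. None of the 10 genes passed the test. The means of 8 of 10 were lower in lactation, and the median log2 difference was -0.15, against -0.005 over all genes, of which 51.7% had a lower mean. What the genes did show was a wide spread among the control tumours: 9 of 10 were highest in control replicate 3, where 22.1% of all genes had their highest value, and 5 of 10 were lowest in control replicate 1, where 14.6% of all genes had their lowest. The same 5 genes had both extremes in these 2 control tumours, against 6.46% of all genes. Both counts of extreme arrays were made after the values had been seen.

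**Figure D1:**
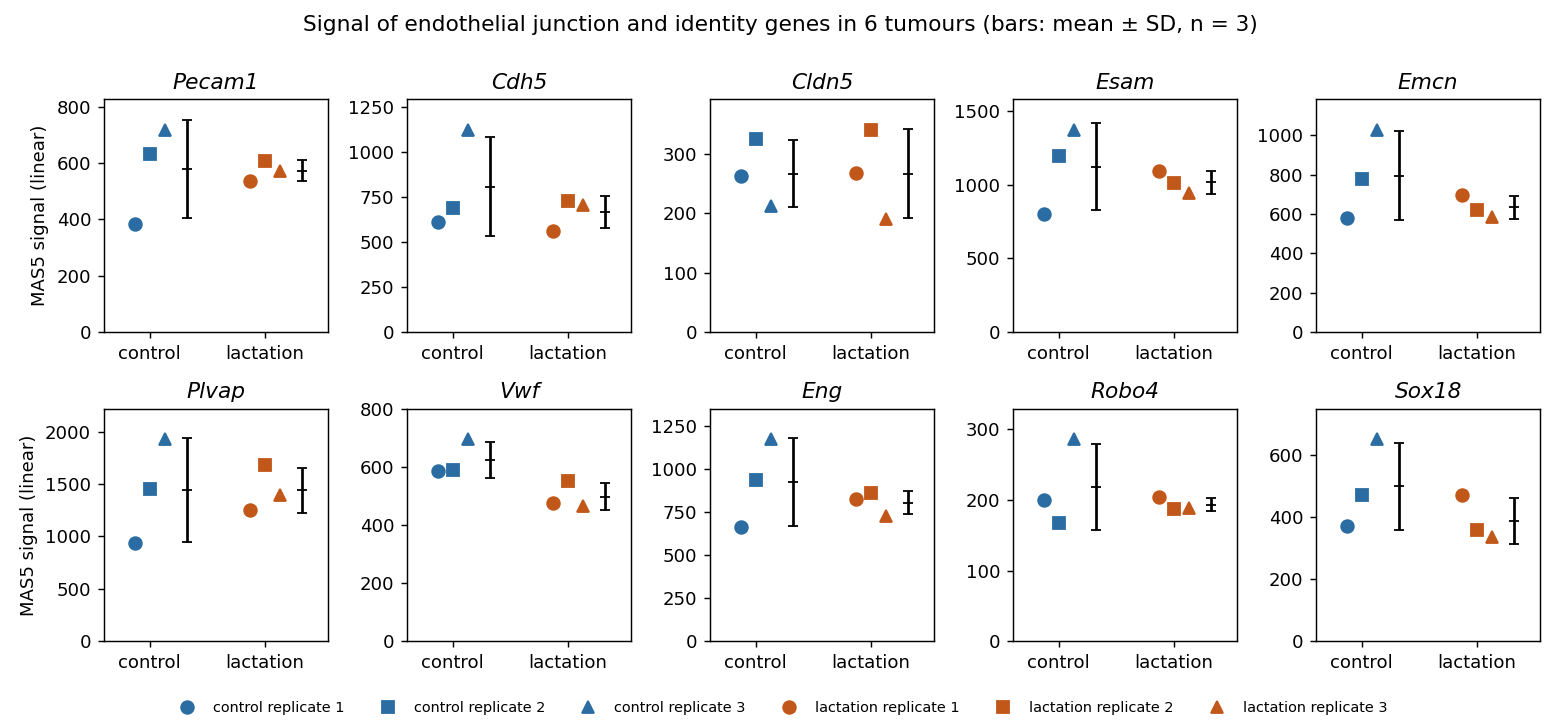
Signal (linear, MAS5) of each gene in each tumour, with the mean ± SD of 3 arrays per group at the right of each group and a separate axis from 0 for each gene. Control replicate 3 is the highest tumour in every panel but that of Cldn5, and the groups are apart only for Vwf.

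The adhesion proteins of the junction come first. Pecam1 had signals of 535.5, 608 and 573 in lactation replicates 1, 2 and 3 and of 384, 632 and 717 in the controls. The lactation values lay inside the control range, and the group means were 572 ± 36.3 and 578 ± 173 (SD, n = 3). Its log2 difference was 0.03, with a standard error of 0.22 in limma. Cdh5 measured 563, 726 and 706 in lactation and 612, 690 and 1124 in controls. Only control replicate 3 stood above the lactation range, and the log2 difference was -0.23 with a standard error of 0.23. A second probe set of Cdh5, below the filter, gave 62.9, 48.4 and 52.4 against 88.5, 56.4 and 69.8. There control replicate 1 was the highest tumour, so the probe sets of Cdh5 do not order the controls alike.

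Esam measured 1097, 1012 and 943 in lactation and 801, 1198 and 1375 in controls, a log2 difference of -0.11 (standard error 0.20). As for Pecam1, the controls lay on both sides of all lactation tumours. Cldn5 was the exception in the set. It measured 268, 340 and 190 in lactation and 262, 325 and 212 in controls, with means of 266 ± 75.1 and 266.5 ± 56.5 (SD, n = 3) and a log2 difference of -0.02 (standard error 0.24). The highest and lowest tumours were both lactation tumours, and control replicate 3 was the second lowest of the 6.

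The surface proteins of the luminal side and the vessel wall followed the first pattern. Emcn measured 698, 622 and 584 in lactation and 578, 781 and 1029 in controls, with means of 635 ± 57.9 and 796 ± 226 (SD, n = 3). Control replicate 1 lay just below the lactation tumours, and the log2 difference was -0.29 (standard error 0.20). Plvap measured 1254, 1678 and 1392 in lactation and 936, 1456 and 1929 in controls, and the group means were 1441 and 1440. Its control tumours differed by 2.06-fold from lowest to highest, the widest control range of the set, and its lactation tumours by 1.34-fold.

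Eng, a co-receptor of TGF-beta and BMP9 signals, had 2 probe sets above the filter. The brighter one measured 826, 860 and 729 in lactation and 665, 936 and 1174 in controls, a log2 difference of -0.16 (standard error 0.20). The dimmer one measured 338, 335 and 259 against 348, 411 and 462, so that every lactation tumour lay below every control tumour, by a small margin between lactation replicate 1 and control replicate 1. In a limma fit over the single-gene probe sets past the filter its log2 difference was -0.37 (standard error 0.16). Its unadjusted p in limma was 0.048 and its adjusted p was 0.9998. Of all genes, on their brightest probe sets, 3.19% lay lower in lactation without overlap. The probe sets of Eng agreed on control replicate 3 as the highest tumour and differed on the place of control replicate 1. Robo4, the endothelial member of the roundabout receptors, measured 205, 188 and 189 in lactation and 199.98, 168 and 286 in controls. Its lactation tumours had a coefficient of variation of 4.88%, against 28.0% in controls, and the log2 difference was -0.13 (standard error 0.21).

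Sox18, a transcription factor of developing and tumour vessels, measured 472, 357 and 335 in lactation and 373, 473 and 652 in controls. The groups overlapped through lactation replicate 1, which was nearly level with control replicate 2. The log2 difference was -0.33 (standard error 0.22), the most negative of the set. Vwf measured 476, 553 and 466 in lactation and 587, 591 and 697 in controls, with means of 498 ± 47.4 and 625 ± 62.3 (SD, n = 3). On the brightest probe set of each gene, Vwf was the 1 gene of 10 whose groups did not overlap. Over all genes, 3.19% lay lower in lactation without overlap and 3.71% higher. The log2 difference of Vwf was -0.32 with a standard error of 0.12, or 1.25-fold higher in controls. Its 95% confidence interval ran from -0.60 to -0.03 for this gene alone.

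None of these differences passed over all genes. At a Benjamini-Hochberg adjusted p under 0.05 limma called 0 of 11623 genes (0%), and the adjusted p of every member was 0.9998. At an unadjusted p under 0.05 in limma, 0.766% of all genes were lower and 1.51% higher, 264 genes in all. In the separate limma fit over probe sets, the dimmer one of Eng had an unadjusted p of 0.048. On the brightest probe set of each member, only Vwf was under 0.05 (unadjusted p = 0.0350 in limma). The 95% intervals of the other 9 genes held 0. They reached from -0.86 for Sox18 to 0.65 for Plvap, so the 6 arrays do not exclude differences of up to 1.82-fold lower or 1.57-fold higher in lactation. P-values here set each group difference against the spread among 3 tumours per group, which limma moderates with information from all genes.

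**Figure D2:**
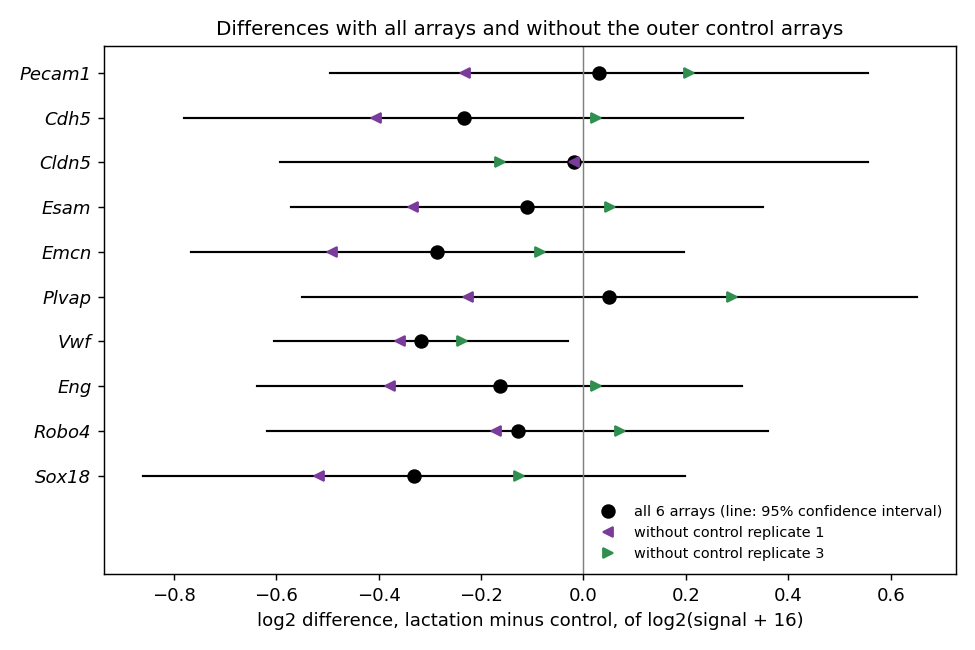
Log2 difference of each gene, lactation minus control, on the log2(signal + 16) scale, with its 95% confidence interval from limma (black) and the value without control replicate 1 (purple) or control replicate 3 (green). Only the interval of Vwf lies below 0, and for most genes the value without one of these control tumours moves to the left or to the right of that with all 6 arrays.

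The direction of the set rested on 1 control tumour. Without control replicate 3 the median log2 difference was 0.02 and 4 of 10 genes were lower. Cdh5, Esam, Eng and Robo4 then had differences of 0.02, 0.05, 0.02 and 0.07, while Emcn, Sox18, Vwf and Cldn5 stayed below 0 at -0.08, -0.13, -0.24 and -0.16. Without control replicate 1 the median was -0.35 and 10 of 10 genes were lower, from -0.02 for Cldn5 to -0.52 for Sox18. Without lactation replicate 2 all 10 were also lower, with a median of -0.21. Vwf ranged from -0.39 to -0.24 when any 1 array was left out, and its unadjusted p in limma reached 0.112. In the fit without control replicate 1 the unadjusted p was under 0.05 for Esam, Emcn, Vwf, Eng and Sox18, where 5.61% of all genes were, and no adjusted p of a member was under 0.871 in any fit.

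The members varied more among the controls than among the lactation tumours. On the log2 scale the control SD was above the lactation SD in 9 of 10 genes, where 51.9% of all genes had the larger SD in controls. This count, too, was made after the values had been seen. The median SD of the members was 0.40 in controls and 0.13 in lactation, against 0.15 in both groups over all genes. Cldn5 was the gene with the smaller control SD, at 0.29 against 0.40. The mean of the 10 genes, each taken relative to its own mean, was -0.06, 0.01 and -0.18 in the lactation tumours and -0.25, 0.09 and 0.39 in control replicates 1, 2 and 3. The control tumours thus spanned 0.64 on the log2 scale and the lactation tumours 0.19. Whether the groups differ in spread was not tested.

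**Figure D3:**
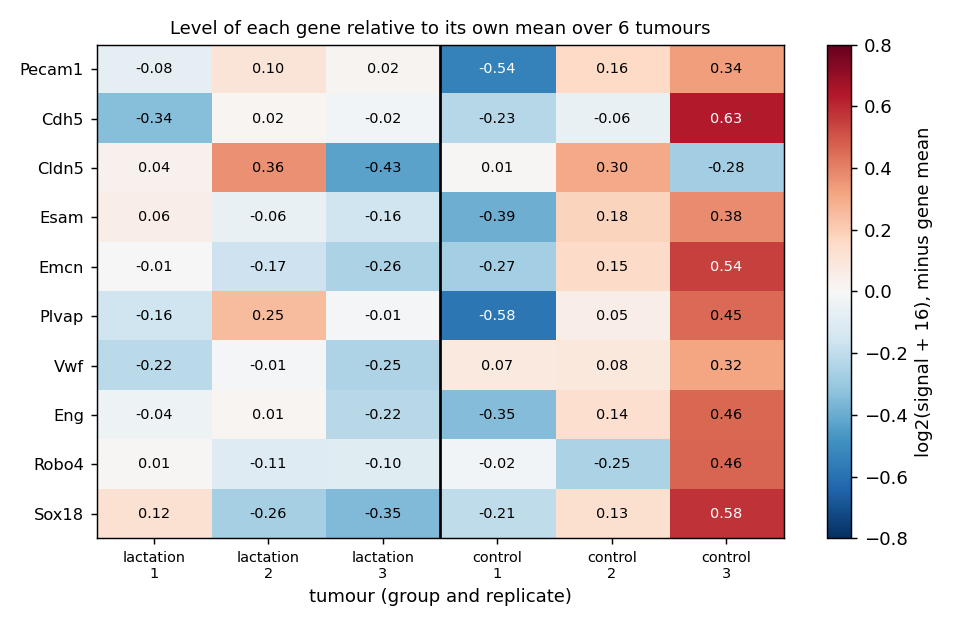
Level of each gene in each tumour on the log2(signal + 16) scale, relative to that gene's mean over the 6 tumours (red higher, blue lower, values printed). The column of control replicate 3 is red for every gene but Cldn5, and the rows of Pecam1, Esam, Emcn, Plvap and Eng have their lowest value in control replicate 1.

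Single genes can be set against the rest of the set within a tumour. In bulk tumour RNA, fewer endothelial cells and less RNA per cell cannot be told apart, and such relative values show unequal change among the genes. Eng followed the mean of the other 9 most closely, with a Pearson correlation of 0.99 over the 6 tumours, and Emcn and Esam followed at 0.93 and 0.92. Vwf and Robo4 followed less closely, at 0.66 and 0.57, and Cldn5 did not, at -0.15. These are descriptions over 6 tumours that share the arrays' scaling. Cldn5 and Robo4 had the lowest mean signals of the set on the probe sets used, and a filter at the 70th percentile kept only the other 8. Relative to the other 9 genes, Vwf was -0.17, -0.03 and -0.08 in lactation and 0.36, -0.004 and -0.08 in controls. The groups overlapped on this scale, and the control mean of 0.09 rested on control replicate 1. There Vwf was only 0.075 above its own mean over the 6 tumours, while most of the set was low. Relative Cldn5 was lowest in control replicate 3, at -0.74, and was next lowest in lactation replicate 3, at -0.28. For 10 of 10 genes the relative values of the groups overlapped.

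Other endothelial genes varied in part like the set. Of 31 receptors and surface proteins of endothelium, 30 were tested and 26 had lower means in lactation, with a median log2 difference of -0.13. None passed the adjusted test, and 19 of the 30 were highest in control replicate 3. The 4 genes with higher means in lactation were Ecscr, Flt1, Notch4 and Nos3, with differences of 0.17, 0.09, 0.03 and 0.01. The list mean was -0.04, -0.02 and -0.14 in lactation and -0.21, 0.06 and 0.35 in controls, and without control replicate 3 the median was 0.01. Kdr, the main VEGF receptor, measured 298, 327 and 324 in lactation and 289, 319 and 470 in controls, and Cd34, a sialomucin of vessels and progenitors, 1178, 1478 and 1351 against 1026, 1598 and 2006. Of the 3 listed genes with the largest differences, Adgrf5, an adhesion receptor of endothelium and lung epithelium, measured 843, 809 and 808 against 953, 935 and 1488. It was the 1 gene of 30 that was lower without overlap, where 3.19% of all genes were. Its log2 difference was -0.42 (standard error 0.18). Robo1, a roundabout receptor of many cell types, had a difference of -0.35 and Cd93, a C-type lectin of endothelium, of -0.33, both with overlapping groups.

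The endothelial transcription factors, which include factors also expressed in other cells, did not share the control spread as a list. Of 22 tested, 14 were lower and 8 higher, the median difference was -0.10 and none passed. The list mean was 0.01, 0.08 and 0.04 in the controls, and 6 of 22 were highest in control replicate 3. Erg, an ETS factor largely restricted to endothelium, did vary like the set, with 158, 155 and 138 in lactation and 113, 205 and 271 in controls. Sox17, of the same SOX subgroup as Sox18, measured 286, 197 and 143 against 149.5, 266.5 and 328. Sox7 measured 161, 180.5 and 175 in lactation and 143, 163 and 232 in controls. The genes of largest difference were Mef2c, a MADS-box factor also expressed in muscle and immune cells (-0.44), Gata2, a factor of endothelium and blood progenitors (-0.36), and Hhex, a homeobox factor (0.31). Gata2 measured 217, 168 and 208 against 232, 279 and 265. It was the 1 gene of 22 that was lower without overlap, where 3.19% of all genes were.

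The list of junction partners, which mixes genes restricted to endothelium with genes of many cell types, was divided. Of 22 tested, 8 were lower and 14 higher, with a median of 0.02, and none passed. The 3 largest differences were those of Ocln, a tight junction membrane protein (0.62), Cgn, its cytoplasmic partner cingulin (0.41), and Nectin2, an adhesion protein (0.35). All 3 were highest in lactation replicate 3, the tumour with the highest level of ductal epithelial genes, and they are also expressed in epithelium. Ocln measured 1373, 1208 and 2227 in lactation and 1280, 924 and 850 in controls. The ductal list of 11 tested genes had means of 0.15, -0.18 and 0.49 in lactation and 0.14, -0.39 and -0.21 in controls, and its part in the levels of these junction genes was not tested. Ptprb, the phosphatase that acts on VE-cadherin, Icam2, an endothelial adhesion protein, Rasip1 and Ccm2l had differences of -0.22, -0.26, -0.23 and -0.23. Ccm2, Cgnl1 and Ctnnd1 were also lower, with differences of -0.04, -0.03 and -0.01. Among the 14 higher genes, Jam2, Cd99l2, Pdcd10 and Krit1 had differences of 0.003, 0.01, 0.03 and 0.04. Afdn, F11r, Jup and Ctnnb1, also higher, had 0.26, 0.10, 0.09 and 0.07. Jam3, a junctional adhesion molecule of endothelium and other cells, was also highest in control replicate 3 and lowest in control replicate 1, at 195, 183 and 190 against 168, 226 and 310.5.

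Genes of activated endothelium had 4 lower and 4 higher of 8 tested, with a median of -0.05. Angpt2, the ligand that destabilises vessels, measured 174, 182 and 198 in lactation and 213, 206.5 and 302 in controls. It was the 1 gene of 8 that was lower without overlap, where 3.19% of all genes were. Its log2 difference was -0.34 (standard error 0.18). Ackr3, a scavenging chemokine receptor, had -0.27, and Selp, the selectin of activated endothelium and platelets, had -0.14. Of 8 lymphatic genes 4 were tested, 3 lower, with a median of -0.08. The largest differences were those of Lyve1, a hyaluronan receptor shared with some macrophages (-0.56), Itga9 (0.13) and Pdpn, also a fibroblast protein (-0.09). Prox1, the defining lymphatic factor, lay below the filter with signals from 0.740 to 23.7. None of these genes passed.

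Markers of other cells were read beside the set, because Vwf is also a platelet protein, Pecam1 is on platelets and leukocytes, and Eng is on stromal cells and macrophages. Of 12 platelet genes 11 had a probe set, 4 of these were tested and 3 were lower, with a median of -0.14. Their mean was 0.004, -0.19 and -0.06 in lactation and -0.02, 0.01 and 0.26 in controls. The chemokines Ppbp and Pf4, which macrophages also can express, had differences of -0.44 and -0.24 and the integrin Itgb3, which is not restricted to platelets, of 0.07. Gp9, a subunit of the platelet receptor that binds von Willebrand factor, had signals from 2.67 to 22.5, below the filter, and Itga2b, the platelet integrin, had signals from 297 to 389 with a difference of -0.04. The part of platelets in the Vwf difference was not tested. Leukocyte genes had lower means in 12 of 12, with a median of -0.15. Their list mean was 0.06, 0.12 and -0.47 in lactation and -0.02, 0.27 and 0.03 in controls. Cd48, Fcer1g and Cd52 had the largest differences, -0.48, -0.32 and -0.30. The part of leukocytes in the levels of the endothelial genes was not tested.

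Stromal genes moved with the set across the control tumours. Of 9 pericyte genes tested 8 were lower, with a median of -0.31, and 8 were highest in control replicate 3. Their mean was -0.11, -0.14 and -0.12 in lactation and -0.14, -0.05 and 0.56 in controls, and without control replicate 3 the median was -0.09. Anpep, a membrane peptidase of pericytes and other cells, measured 115.7, 114.5 and 96.4 against 115.97, 169 and 216. It was the 1 gene of 9 that was lower without overlap, by a narrow margin, where 3.19% of all genes were. Its log2 difference was -0.52, and Pdgfrb and Abcc9, a receptor and a channel subunit of pericytes, had -0.43 and -0.35. Of 12 fibroblast genes 8 were lower, with a median of -0.01, and 9 of 12 had both their highest value in control replicate 3 and their lowest in control replicate 1. Their mean was -0.41, 0.04 and 0.45 in control replicates 1, 2 and 3. The largest fibroblast differences were those of Pdgfra (-0.36), Pi16 (0.27) and Fap (-0.23). The ductal genes had higher means in 11 of 11, with a median of 0.29, led by Tspan8 (0.64), Muc1 (0.60) and Cldn4 (0.55), and were lower in control replicate 3 than in control replicate 1 by 0.35 on the log2 scale. None of these genes passed the adjusted test. The part of the tumours' stroma and epithelium in the levels of the endothelial genes was not tested.

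**Figure D4:**
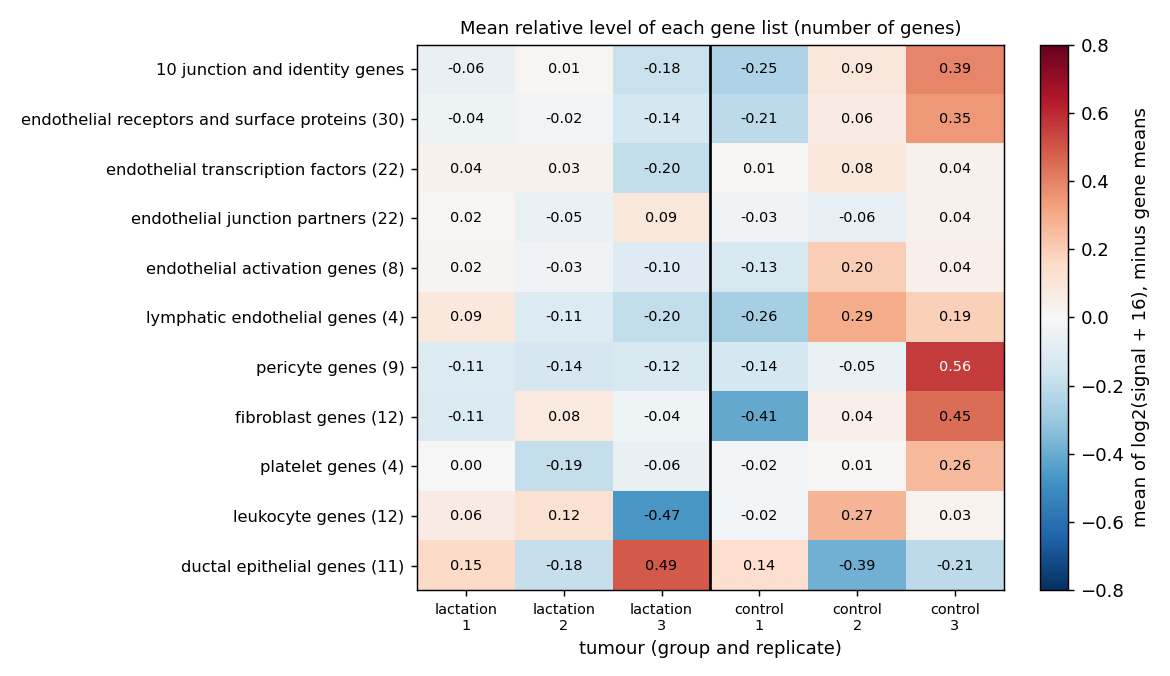
Mean level of each gene list in each tumour on the log2(signal + 16) scale, relative to each gene's own mean (number of tested genes in brackets, red higher, blue lower). The 10 endothelial junction and identity genes, the endothelial receptors, the pericyte genes and the fibroblast genes are all highest in control replicate 3, at 0.39, 0.35, 0.56 and 0.45, where the ductal genes are at -0.21.

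The genes outside the set whose levels were most like its mean over the 6 tumours were Rasip1, an endothelial regulator of junctions and vessel lumens, Adcy4, an adenylate cyclase, Sec22b, a vesicle fusion protein, Chst14, a dermatan sulfotransferase, and Mdfic. Their Pearson correlations with that mean ran from 0.994 to 0.998 over 6 tumours, and each had a Spearman correlation of 1. They were picked as the 5 highest of all tested genes, and such values over 6 tumours carry no test. Rasip1 measured 143, 159 and 118 in lactation and 107, 168 and 247.5 in controls. All 5 were highest in control replicate 3 and lowest in control replicate 1, with log2 differences between lactation and control from -0.23 to -0.12.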

How the data were processed

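Total RNA of 6 tumours, 3 per group, was labelled with biotin for Affymetrix arrays per the labels' protocols. The deposited table holds 1 intensity per probe set, made by the authors with MAS5 per the submitters' processing notes; no version or genome build is stated in those sources. The 2% trimmed mean of every array was 500.0, so arrays were already scaled. Array medians were 99.3 to 111.0, and their number limits precision. Of 45101 probe sets, 34958 named 1 gene; 932 with several and 9211 with none were left out. Values were analysed as log2(signal + 16), which understates changes of dim genes. The probe set with the highest mean stood for its gene, and genes with at least 3 of 6 arrays at or above the array median were kept. Groups were compared with limma 3.58.1 in R 4.3.3, by lmFit and trended eBayes, at a Benjamini-Hochberg threshold of 0.05. The fit was run on simulated data with changes larger than any member difference. That run does not show how well differences as small as those of the members would be found. Gene lists are described by counts and medians beside all genes. 10 lists besides the members held 157 entries, of which 4 had no single-gene probe set matched here. A list mean averages its genes' log2 values after each gene's mean was subtracted. All members, the 3 tested genes of largest difference in each list and the 5 genes most like the members' mean were named. Kdr, Cd34, Tek, Tie1, Ecscr, Flt1, Notch4, Nos3, Erg, Sox17 and Sox7 were named after their values were seen. So were Jam2, Jam3, Ptprb, Icam2, Ccm2l, Cd99l2, Pdcd10, Krit1, Prox1, Gp9 and Itga2b. The same holds for Afdn, F11r, Jup, Ctnnb1, Ccm2, Cgnl1 and Ctnnd1. Members and lists were chosen with earlier results of these data known. Alternatives were quantile normalization, median centring, pseudocounts of 1 and 64, no filter, a filter at the 70th percentile, averaged probe sets per gene, no trend, a replicate block and leaving out each array. Tables and plots used Python 3.11.15, pandas 2.3.3 and matplotlib 3.10.9.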

Additional observations from a re-analysis of the deposited data

How the results depend on the processing

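No gene passed an adjusted p under 0.05 in limma under any of the 15 alternatives. The median log2 difference of the 10 genes ranged from -0.35 to 0.024 when 1 array was left out, and was above 0 only without control replicate 3 (0.024). Under the other alternatives it lay between -0.20 and -0.13. Labels give both groups replicate numbers 1 to 3 but do not say that they pair tumours, so the numbers are not taken to pair them. Same-numbered tumours had correlations of deviations of 0.14, -0.08 and 0.27. With no reference value beside them, these cannot decide whether the tumours were paired. With replicate number as a block the count of adjusted calls was 0 and the median was -0.15. In limma 289 genes then had an unadjusted p under 0.05 in place of 264, and that of Vwf was 0.066. Of 148 values of single members under the alternatives, 11 changed sign. With arrays centred on their medians Pecam1 was -0.015, and that scaling shifted all genes by -0.046. When 1 array was left out, Pecam1 ranged from -0.23 to 0.21, Plvap from -0.23 to 0.29, Cldn5 from -0.20 to 0.19, Cdh5 from -0.41 to 0.025, Esam from -0.33 to 0.051, Eng from -0.38 to 0.024 and Robo4 from -0.29 to 0.072, while Emcn, Vwf and Sox18 were below 0 in all 6 fits. Of 439 values of other named genes 6 changed sign. Itgb3 was -0.11 with its probe sets averaged and ranged from -0.0035 to 0.20 without 1 array, Selp from -0.32 to 0.00088, Pi16 from -0.15 to 0.71, Itga9 from -0.013 to 0.23 and Pdpn from -0.34 to 0.21. Of 150 values of list medians 11 changed sign, all in 5 lists whose main medians lay from -0.13 to 0.02: fibroblast genes, junction partners, transcription factors, activation genes and receptors. Beyond the array left out, the causes were not tested.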
